A study of Caenorhabditis elegans with 2 samples.

Results

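The fbxb and fbxc genes are a family of F-box genes of the nematode *Caenorhabditis elegans*, taken here as every protein-coding gene of the Ensembl annotation of assembly WBcel235 (ce11) whose symbol starts with fbxb- or fbxc-. The rule gave 152 of the 19973 such genes outside the mitochondrial genome, 104 fbxb and 48 fbxc genes. The data were ChIP-seq peaks of the transcription factor ATF-7 in whole worms of strain OP638 at the young adult stage. The strain carries the unc-119(tm4063) mutation on chromosome III and the transgene wgIs638. From the transgene this stable line makes ATF-7 fused at its C terminus to GFP and FLAG. Animals of both sexes were pooled and had been synchronised as starved L1 larvae after bleaching. There were 2 libraries, biological replicates 2 and 3 of this single group, from separate biosamples. No second condition was compared, so every value describes positions in the genome and not a response of the genes. The labels differ on the antibody, with GFP in the description and atf-7 in the antibody field.

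F-box proteins are the substrate receptors of SCF ubiquitin ligases. The F-box binds a Skp1-related adaptor, the adaptor binds a cullin, and the rest of the F-box protein holds the substrate that is to be marked with ubiquitin. The family is much larger in *C. elegans* than in most animals, and many of its genes stand in tandem arrays of related copies. ATF-7 is a bZIP factor best known in worms for its part in innate immunity, where the p38 kinase PMK-1 acts on it. Factors of its ATF and CREB family bind the cAMP response element (CRE), TGACGTCA.

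The authors gave 4 lists of peaks in ce11. The optimal list after the irreproducible discovery rate (IDR) step, which keeps peaks that rank alike in both replicates, held 2247 peaks. Relaxed lists, which also hold background, held 30000 peaks for the pooled reads, 28126 for replicate 2 and 30000 for replicate 3. Each peak has a signal, the authors' value for the peak relative to the control, which can be ranked within a list but not compared between lists. Read depth is unknown from these files. A gene was called bound when an IDR summit lay from 1000 bp upstream to 200 bp downstream of an annotated 5′ end of one of its transcripts, and the same window was used for relaxed summits. Annotated 5′ ends in this worm are often trans-splice sites or start codons rather than the place where transcription starts.

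Of the 152 members 5 were bound, which is 3.29% (95% exact Clopper-Pearson interval 1.08 to 7.51%), beside 6.23% of all protein-coding genes. They were *fbxb-58*, *fbxb-85*, *fbxb-72*, *fbxc-29* and *fbxc-19*, in order of signal. Relaxed pooled peaks reached 24 members, 15.8% (10.4 to 22.6%), beside 37.6% of all genes. Most of the family was not reached in any list: 112 members had no summit in their window in the pooled list or in either replicate's list. These intervals, and all others given here, cover counting error only and treat genes as independent, which tandem copies are not. No enrichment was tested.

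**Figure D1:**
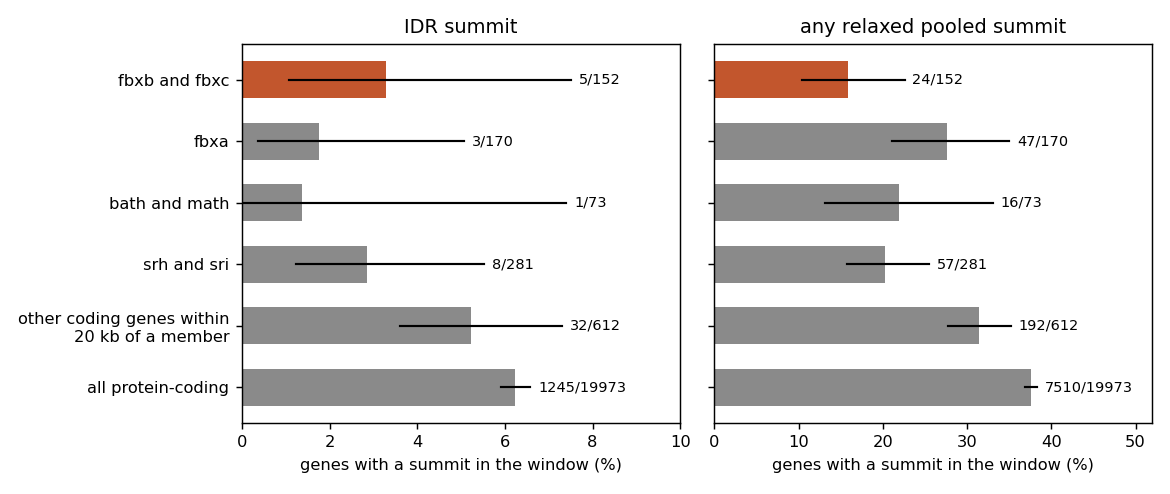
Percentage of genes with an ATF-7 summit in the promoter window, for IDR peaks on the left and all relaxed pooled peaks on the right. Bars give the share, black lines its 95% Clopper-Pearson interval, and the labels the number of genes with a summit over the number of genes. The fbxb and fbxc genes had 5 of 152 with an IDR summit and 24 of 152 with a relaxed one.

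The peak at *fbxb-58* was the strongest of the family. It had a signal of 495 in the IDR and pooled lists and was IDR peak 67 by rank, within the top 2.98% of that list. In replicate 2 its summit lay 24 bp away with a signal of 192 and rank 60, and in replicate 3 it lay 6 bp away with a signal of 306 and rank 64, so both replicates placed it high. The peak covered chrX:1626957-1627301 with its summit at 1627137, in intergenic sequence exactly 1000 bp upstream of the 5′ end of *fbxb-58*. It therefore sat on the very edge of the window: counting the summit 1 base lower leaves it out and gives 4 bound members. The 5′ end of *fbxb-58* was nevertheless the nearest one of a coding gene. A weaker pooled summit, signal 93.4 and rank 2805, lay 199 bp nearer to the gene and inside the window.

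The *fbxb-85* peak was the one peak of the 5 that another coding gene shared. Its signal was 259 (IDR rank 323), with 85.6 (rank 453) in replicate 2 and 172 (rank 288) in replicate 3. It lay at chrIII:10848976-10849120, with the summit at 10849040. That is 77 bp upstream of *fbxb-85* and 182 bp upstream of *hex-3*, a hexosaminidase gene that runs the other way from a 5′ end 259 bp distant. Peaks do not say to which of such divergent genes they belong. Over all bound genes 441 of 1245, or 35.4%, shared their peak with another coding gene.

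At *fbxb-72* the summit stood closest to the gene, 20 bp upstream of its 5′ end on chrV:723754-724189. Its signal was 177 (IDR rank 773), and the replicates gave 66.7 (rank 842) and 110 (rank 847) at positions within 1 bp of it. The upstream neighbour on the same strand is *icl-1*, which encodes the glyoxylate cycle enzyme with isocitrate lyase and malate synthase activity. The next IDR summit, signal 145, lay 3787 bp away inside the *icl-1* gene record, outside the window of *icl-1* and inside that of the chemoreceptor gene *srh-2*. Further relaxed pooled summits lay between those peaks, among them one 199 bp upstream of the *fbxb-72* summit with rank 2455 and one 2633 bp away with a signal of 93.9.

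The remaining IDR peaks both lay in tandem clusters on chromosome II and ranked lower. The *fbxc-29* peak, chrII:915200-915635, had a signal of 146 (IDR rank 1159) and its summit 662 bp upstream. It had a signal of 46.3 and rank 1957 in replicate 2, and 95.3 and rank 1151 in replicate 3. It lay between *fbxc-33* and *fbxc-29*, which are transcribed in the same direction. The *fbxc-19* peak, chrII:1819919-1820354, was the weakest, with a signal of 113 and IDR rank 1943, in a list whose lowest signal was 105. Its summit was 342 bp upstream of *fbxc-19* and at the same time in the annotated 5′ UTR of *fbxa-3*, another F-box gene on the opposite strand. Replicates 2 and 3 ranked it 1979 and 2265. The window of a piRNA, 21ur-12798, also held this summit, which no other coding gene's window did. At the last 3 of these peaks the summit stood at the exact midpoint of a 436-bp peak, the commonest width of the list, as in 74.2% of IDR peaks, so its position is no finer than the authors' calling.

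**Figure D2:**
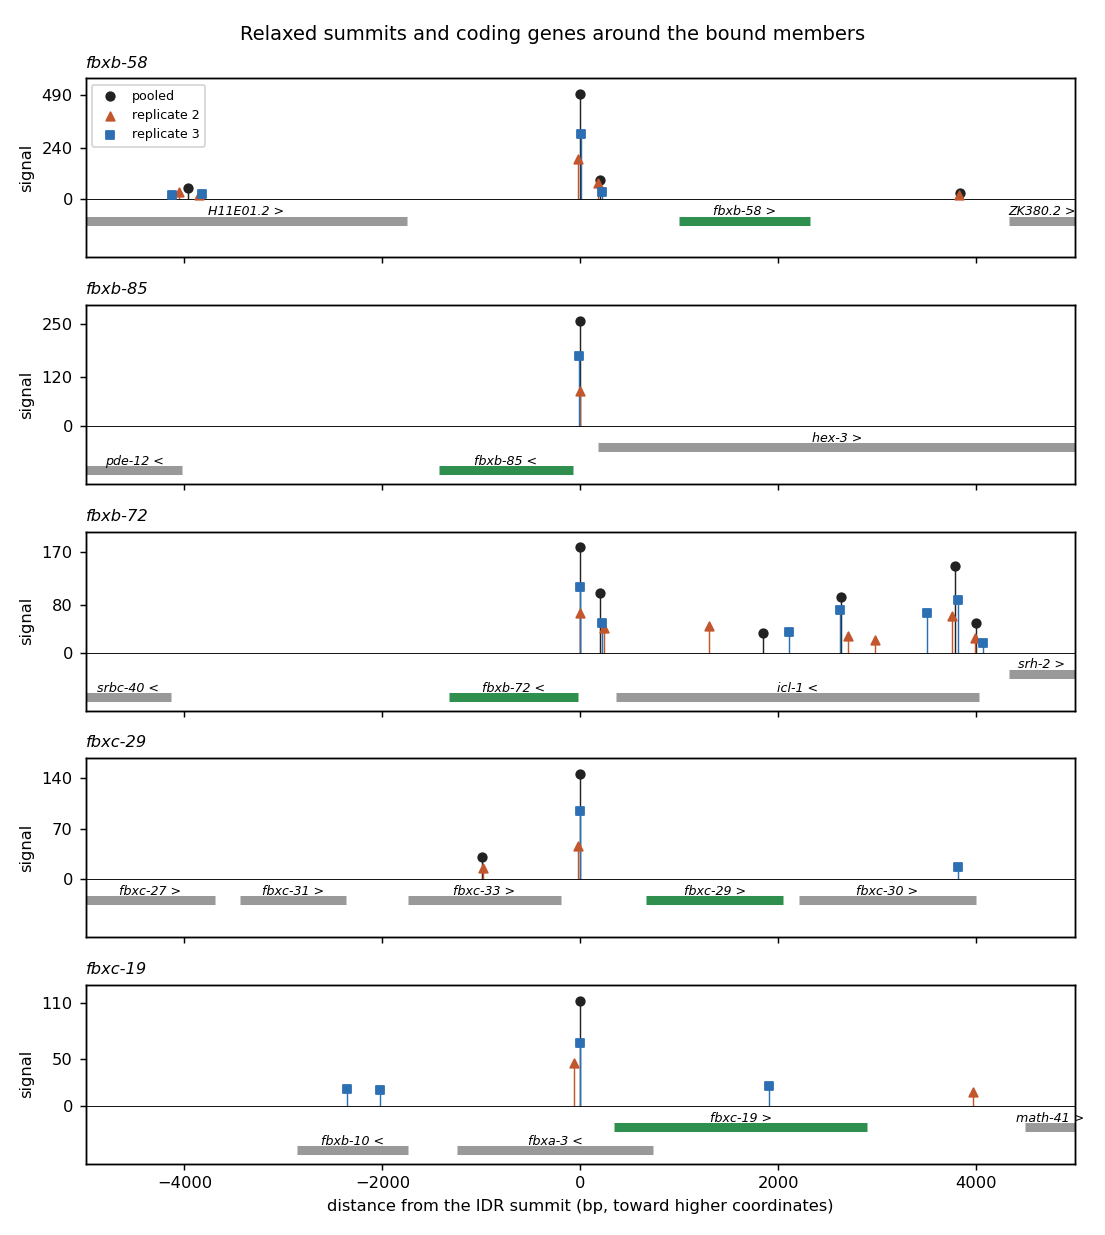
Surroundings of the 5 IDR peaks at fbxb and fbxc genes. Horizontal axes give the distance from the IDR summit in bp, vertical axes the authors' signal of each relaxed summit in the pooled list (circles), replicate 2 (triangles) and replicate 3 (squares), on a scale of its own in each panel. Bars below show coding genes, the member in green, with the direction of transcription. Each IDR summit has a summit of both replicates close by, and at *fbxb-85* the gene *hex-3* starts on the other side.

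None of these summits carries the CRE that the ATF and CREB family is known to bind, so their sequences are shown. That of *fbxc-19*, whose summit lies in an annotated 5′ UTR, is left out. The letters run 5′ to 3′ on the strand of the member, from ce11 as RefSeq gives it, over up to 100 bp on each side of the summit and without annotated UTR bases. Capitals mark TGACG, the first 5 letters of the CRE, and TGATAA, which resembles the sites that GATA factors bind, on either strand. The positions are chrX:1627037-1627237 (plus strand) for *fbxb-58*, chrIII:10848964-10849140 (minus strand) for *fbxb-85*, chrV:723953-724072 (minus strand) for *fbxb-72*, and chrII:915318-915518 (plus strand) for *fbxc-29*.
fbxb-58: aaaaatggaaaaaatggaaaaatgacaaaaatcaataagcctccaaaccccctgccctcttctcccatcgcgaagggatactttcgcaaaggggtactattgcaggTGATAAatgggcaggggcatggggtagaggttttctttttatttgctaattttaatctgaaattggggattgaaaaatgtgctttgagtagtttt
fbxb-85: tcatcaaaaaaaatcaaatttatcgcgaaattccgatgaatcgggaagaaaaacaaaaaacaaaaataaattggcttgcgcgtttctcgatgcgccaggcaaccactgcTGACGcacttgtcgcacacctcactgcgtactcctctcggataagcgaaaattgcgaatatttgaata
fbxb-72: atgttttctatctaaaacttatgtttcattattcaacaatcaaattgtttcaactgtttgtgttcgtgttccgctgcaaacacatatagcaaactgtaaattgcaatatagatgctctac
fbxc-29: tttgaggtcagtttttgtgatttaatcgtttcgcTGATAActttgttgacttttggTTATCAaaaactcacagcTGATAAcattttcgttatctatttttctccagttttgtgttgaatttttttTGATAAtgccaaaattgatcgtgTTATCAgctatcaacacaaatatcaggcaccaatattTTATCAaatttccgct

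Within 100 bp of the summit, all 5 peaks held 0 copies of TGACGTCA, of the E-box CACGTG and of the repeat GAGAGAGA. Of all 2247 IDR peaks 9.79% held TGACGTCA there, 11.8% held CACGTG and 8.86% held GAGAGAGA. TGACG was found once each at *fbxb-85* and *fbxc-19*, and in 40.4% of all IDR peaks. The *fbxc-29* window held 6 copies of TGATAA, a count that 3 of the 2247 IDR peaks reached (0.134%), while 28.0% held at least 1. The threshold of 6 was taken from this peak, so the 0.134% is a description only. Its window had 30.8% GC, the lowest of the 5. The *fbxc-19* window held 2 copies, the *fbxb-58* window 1 and the *fbxb-72* window none of the motifs searched. A match is a run of letters and not a shown site. Every 31-base word in these 5 windows occurred once in the genome.

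Beyond the bound members, the nearest IDR summits outside the window were 1518 bp upstream of *fbxb-96* (signal 158), 1644 bp downstream of the 5′ end of *fbxb-76* (signal 153) and 1725 bp upstream of *fbxc-23* (signal 113). The first of these lay in an intron of C52E2.3 and in the window of C52E2.2. Over all members the median distance from the gene to the nearest IDR summit was 31326 bp, beside 20147 bp over all protein-coding genes.

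Among the relaxed pooled peaks the members came in late. The 5 bound members were also the only ones in as many of the strongest pooled peaks as the IDR list holds, which reached 6.23% of all genes. That cut is not a second reading. The bound members had the same ranks and signals in both lists, and each reached 1245 genes. The 5000 strongest pooled peaks reached 6 members, 3.95%, beside 11.8% of all genes. The 10000 strongest reached 9 members, 5.92% (2.74 to 10.9%), beside 18.9%. The remaining 15 of the 24 members thus had nothing above rank 10000. The median rank of the best summit was 14471 over the 24 members with one, and 9831 over the 7510 genes with one. The same median was 14057 over the other coding genes in the first 5 Mb of chromosome II. It was 11612 over the fbxa genes, 17518 over the bath and math genes and 15752 over the srh and sri genes. Late ranks were thus not particular to the members. Summits were intergenic at 15 of the 24 members, in introns at 4, in coding exons at 4 and in a 5′ UTR at 1.

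The members after the bound ones were *fbxc-28*, *fbxc-44*, *fbxc-39* and *fbxb-67*. *fbxc-28* had a signal of 70.5 and pooled rank 4774, with rank 3621 in replicate 2 and 17874 in replicate 3. *fbxc-44* (signal 64.7, pooled rank 5648) and *fbxc-39* (signal 62.2, pooled rank 6113) went the other way. Their best summits were 19637 and 18868 by rank in replicate 2, against 5374 and 4815 in replicate 3. The *fbxc-44* summit lay 324 bp upstream of the gene and 128 bp upstream of its neighbour C16A11.2. *fbxb-67* (signal 60.2, rank 6540) had its summit in its own coding exon, 27 bp inside the 5′ end, and ranks of 14320 and 8396. None of them is in the IDR list, whose lowest signal was 105. The bound members had the same signal and rank in the IDR and pooled lists. Whether the unlike replicate ranks bear on the absence of these members was not tested.

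Below rank 10000 followed *fbxb-66* (11657), *fbxc-45* (13815), *fbxb-25* (13936), *fbxb-65* (15006), *fbxb-7* (16808), *fbxb-75* (16973), *fbxc-21* (18325) and *fbxc-20* (20894). *fbxc-45* was alone among them in better ranks in both replicates, 7564 and 7453. Replicate 2 had 3 summits in its window, the best of them 901 bp upstream, close to the pooled one in an intron of *ubc-13*, a ubiquitin-conjugating enzyme gene. The 1 summit of replicate 3 lay 284 bp upstream. The summit of *fbxb-7* was shared with Y20C6A.1. The last of the 24 was *fbxb-119*, rank 28836 of 30000 with a signal of 25.4.

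Each replicate's own list reached a like number of members. There were 25 (16.4%) in replicate 2, beside 36.9% of all genes, and 24 (15.8%) in replicate 3, beside 38.2%. Only 13 members, 8.55% (4.63 to 14.2%), had a summit in both, beside 26.0% of all genes. Of the 24 members with a pooled summit, 12 had one in both replicates, 8 in one of them and 4 in neither. Another 16 members appeared in a replicate's list without a pooled summit, which brought those in any list to 40, 26.3%, beside 50.6% of all genes. The best placed of these was *fbxb-62*, rank 6845 in replicate 2 and absent from replicate 3's list, named after its values were seen.

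**Figure D3:**
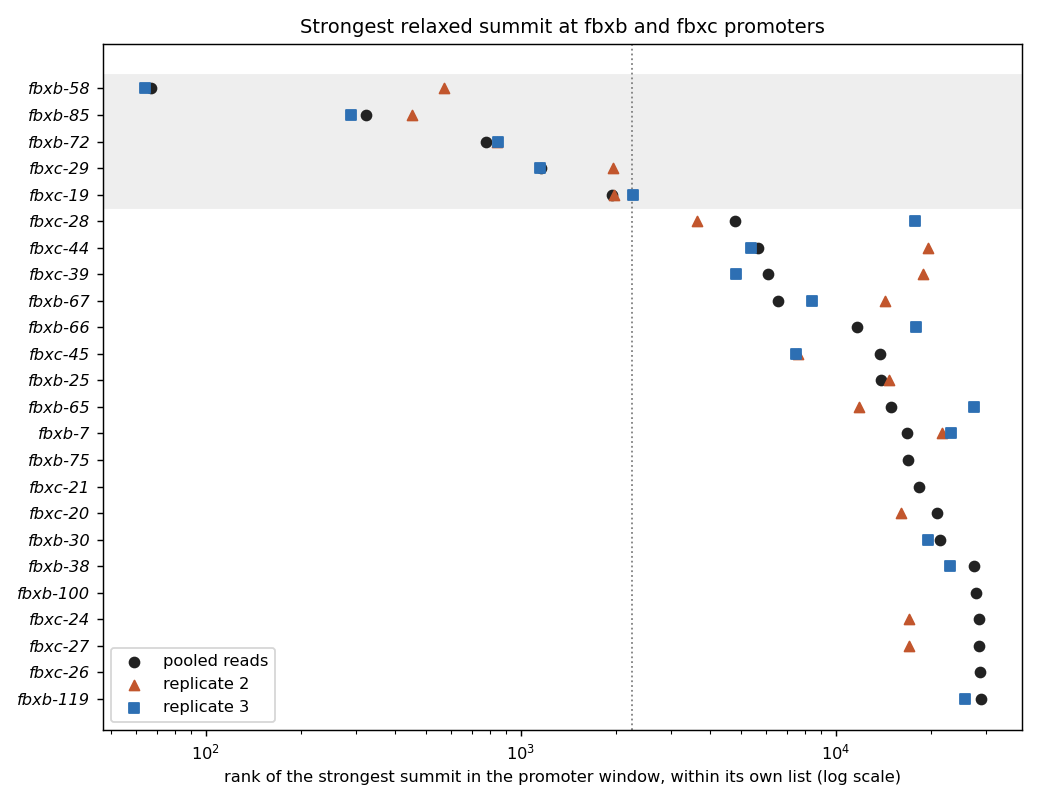
Rank of the strongest summit in the promoter window of each of the 24 members with a relaxed pooled summit, on a log axis, in the pooled list (circles), replicate 2 (triangles) and replicate 3 (squares). The grey band marks the 5 bound members and the dotted line rank 2247, the length of the IDR list. A missing symbol means no summit in the window, and the *fbxb-58* triangle at 569 is its second summit in replicate 2, since the stronger one fell just outside the window.

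Between the branches of the family, 3 of 104 fbxb genes (2.88%) and 2 of 48 fbxc genes (4.17%) were bound. Relaxed pooled summits were found at 13 fbxb genes, 12.5% (6.83 to 20.4%), and at 11 fbxc genes, 22.9% (12 to 37.3%). The intervals overlap. Of the related families in tandem arrays, the fbxa F-box genes had 3 of 170 bound (1.76%) and 47 with a relaxed summit (27.6%, 21.1 to 35.0%). The bath and math genes, of which the bath genes encode substrate adaptors of another kind of cullin ligase, had 1 of 73 bound and 16 with a relaxed summit (21.9%). The srh and sri chemoreceptor genes had 8 of 281 bound (2.85%) and 57 with a relaxed summit (20.3%, 15.7 to 25.5%). All these families were below the 37.6% of all coding genes, and the interval of the fbxb and fbxc genes overlaps with each of theirs.

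The members are not spread evenly over the genome. On chromosome II lie 93 of the 152, 91 of them in its first 5 Mb. The others are 22 on chromosome IV, 16 on V, 10 on I, 8 on III and 3 on X. Coding genes other than members within 20000 bp of one numbered 612, and 31.4% (27.7 to 35.2%) of them had a relaxed pooled summit, with 5.23% bound. In the first 5 Mb of chromosome II the members had 14.3% (7.83 to 23.2%) and the other coding genes 31.1% (28.4 to 33.8%). So a smaller share of members than of the genes beside them had a relaxed summit, with no overlap of these intervals. Bound in the first 5 Mb of chromosome II were 2.20% of members (0.267 to 7.71%) and 3.51% of other coding genes (2.52 to 4.75%). The intervals of the IDR shares overlap, both there and with the genes within 20000 bp.

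Several features of the windows differed as well, and their part in the lower share was not tested beyond the subsets given here. Members have a mean of 1.09 annotated 5′ ends against 1.47 over all genes, and thus fewer windows in which a summit can fall. The median gap to the next coding gene upstream was 608 bp against 936 bp, and the median gene length 1312 bp against 2027 bp. Copies resemble each other: 71 members have a window in which under 95% of the 31-base words occur once in the genome, and how reads that map to several places were treated is not given in the sources used here. Among members with at least 95% unique words, 16 of 81 had a relaxed summit, 19.8% (11.7 to 30.1%), beside 40.3% of all such genes. Among members under 80% the count was 2 of 34, 5.88%, beside 17% of all such genes. With a single 5′ end and at least 95% unique words, 14 of 76 members had one, 18.4% (10.5 to 29.0%), beside 34.1% of all such genes and 32.1% (27.1 to 37.5%) of such genes near members. Where the upstream gap was also at least 1000 bp, the values were 4 of 24, 16.7% (4.74 to 37.4%), and 27.7% and 24.1%, which are within the interval of the members. For IDR peaks the members with a single 5′ end and unique windows had 5.26% (1.45 to 12.9%) and all such genes 5.28%.

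Tandem clusters, with at most 10000 bp between consecutive members, numbered 24 and held 108 members. Of these 14 (13.0%, 7.27 to 20.8%) had a relaxed pooled summit and 2 were bound, and of the 44 members that stand alone 10 (22.7%, 11.5 to 37.8%) and 3. No relaxed pooled summit lay in a member's window in 17 of the 24 clusters, nor in 9 of the 12 clusters with at least 4 members. Taken over their whole spans of 342 kb, the clusters held 27 pooled summits, 7.90 per 100 kb, beside 29.9 per 100 kb over the genome. These spans run from the start of the first member to the end of the last, so promoters at the outer ends are left out. They include the array on chromosome IV, described below, where a list without summits does not measure binding. The density in like regions or in other gene clusters was not computed.

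The largest cluster, chrII:907448-1001451, holds 20 members in 94.0 kb, 18 fbxc and 2 fbxb, with 13 other coding genes between them. It had 1 bound member, *fbxc-29*, 6 members with a relaxed pooled summit and 3 with a summit in both replicates. Those with a pooled summit were *fbxc-24* and *fbxc-27*, which share one at rank 28556, *fbxc-29*, *fbxc-28*, *fbxc-39* and *fbxb-30*. The summit of *fbxb-30* (rank 21467) was shared with F45D11.5. *fbxc-36* and *fbxc-17* had a summit in one replicate only. The remaining members, *fbxc-31*, *fbxc-33*, *fbxc-30*, *fbxc-34*, *fbxc-32*, *fbxc-7*, *fbxc-18*, *fbxc-14*, *fbxc-15*, *fbxc-40*, *fbxc-42* and *fbxb-29*, had none in any list. Of these, *fbxc-40*, *fbxc-18*, *fbxb-29* and *fbxc-34* have windows with 3.67, 60.6, 69.2 and 71.6% unique words, where a missing summit does not measure binding.

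The third cluster by size, chrII:1676388-1703463, has 9 members in windows with at least 98.2% unique words. It had no IDR summit. Pooled summits reached *fbxb-25* (rank 13936, in its coding exon), *fbxc-21* (rank 18325, also in its coding exon) and *fbxc-26* (rank 28665). In replicate 3 alone *fbxb-17* and the neighbours *fbxb-18* and *fbxb-19* had summits, the latter a shared one at rank 29722. *fbxb-26*, *fbxc-22* and *fbxb-47* had none.

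**Figure D4:**
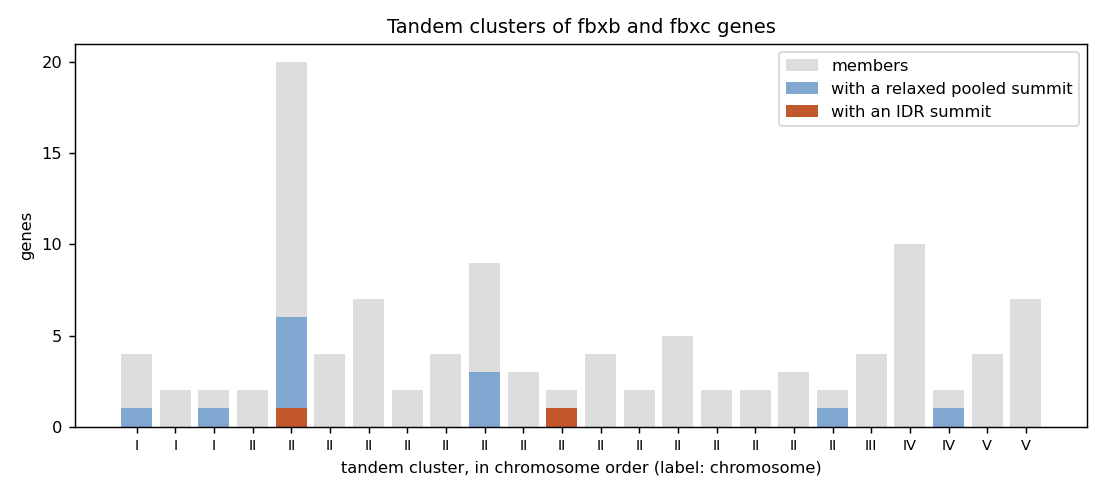
The 24 tandem clusters in chromosome order. Grey bars give the number of fbxb and fbxc genes in each, blue bars those with a relaxed pooled summit in the window, and red bars those with an IDR summit. The cluster of 20 genes had 6 with a relaxed summit, and the array of 10 on chromosome IV had 0.

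The second cluster by size is an array of 10 genes at chrIV:891239-911196, all on the plus strand, in which 2 kinds of gene alternate with a repeat of 4152 or 4153 bp. The first kind carries the symbols *fbxc-5* and *fbxc-4*, the second *fbxc-8* and *fbxc-12*. In their whole span there was no summit in any of the 4 lists. Between 0 and 12% of the words of these windows occur once in the genome, so a short read from here mostly matches several copies, and a list without summits here does not measure binding. The 100 bases before the 5′ end are shown as they were the same letter for letter in 5 of 5 copies of each kind. They come from chrIV:891139-891238 and chrIV:892706-892805, plus strand, and hold none of the motifs searched, so no letter is in capitals.
fbxc-5 kind: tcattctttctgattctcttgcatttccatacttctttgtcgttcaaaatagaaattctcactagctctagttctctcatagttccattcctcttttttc
fbxc-8 kind: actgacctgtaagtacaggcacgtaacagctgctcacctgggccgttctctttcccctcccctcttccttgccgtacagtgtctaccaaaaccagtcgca

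A CRE stood in the windows of more members than bound peaks did. TGACGTCA, which reads the same on both strands, lay in the window of 23 members, 15.1% (9.84 to 21.8%), beside 7.21% of all protein-coding genes and 8.99% (6.84 to 11.5%) of the other coding genes within 20000 bp. It was in 16 fbxb and 7 fbxc genes. In 3 pairs of members the windows held the same CRE: *fbxb-1* and *fbxb-115*, *fbxb-61* and *fbxb-63*, and *fbxc-24* and *fbxc-27*, the last with more than 1 shared site. The member interval lies above the share of all genes and overlaps that of the neighbours. TGACG lay in 77.0% of member windows and 76.4% of all, CACGTG in 15.8% and 21.4%, GAGAGAGA in 11.2% and 10.4%, and TGATAA in 67.8% (59.7 to 75.1%) and 75.4%. Tandem copies inherit their sequence from each other, so these counts are not of independent sites.

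Of the 23 members with a CRE, 8 had a relaxed pooled summit, 34.8% (16.4 to 57.3%), against 16 of the 129 without one, 12.4% (7.26 to 19.4%). Over all protein-coding genes the shares were 54.6% and 36.3%, and over the other coding genes near members 25 of 55 (45.5%) and 167 of 557. The intervals of the members with and without a CRE overlap. Genes with a CRE also have more annotated 5′ ends, and so more windows for a CRE and a summit. The means with and without a CRE were 1.39 and 1.04 for members and 1.94 and 1.43 for all genes. The part of this in the shares was not tested. Of the members with a CRE 1 was bound, *fbxb-58*, which is 4.35% (0.110 to 21.9%), beside 12.4% of all genes with a CRE. Its CRE lay 471 bp upstream of the gene and 330 bp from the nearest pooled summit. That summit is the weaker one of rank 2805, and the IDR summit lay farther from the CRE. No summit in any list was found at 13 of the 23, among them *fbxb-60*, *fbxb-61*, *fbxb-63*, *fbxb-1*, *fbxb-115* and *fbxb-2* of the clusters on chromosome V, *fbxb-55* on chromosome IV, and *fbxb-45*, *fbxb-51*, *fbxc-18* and *fbxc-40* on chromosome II, the last pair in the poorly unique windows named above. The other two were *fbxb-76* and *fbxb-83*, with a CRE 193 bp and 106 bp inside the 5′ end.

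**Figure D5:**
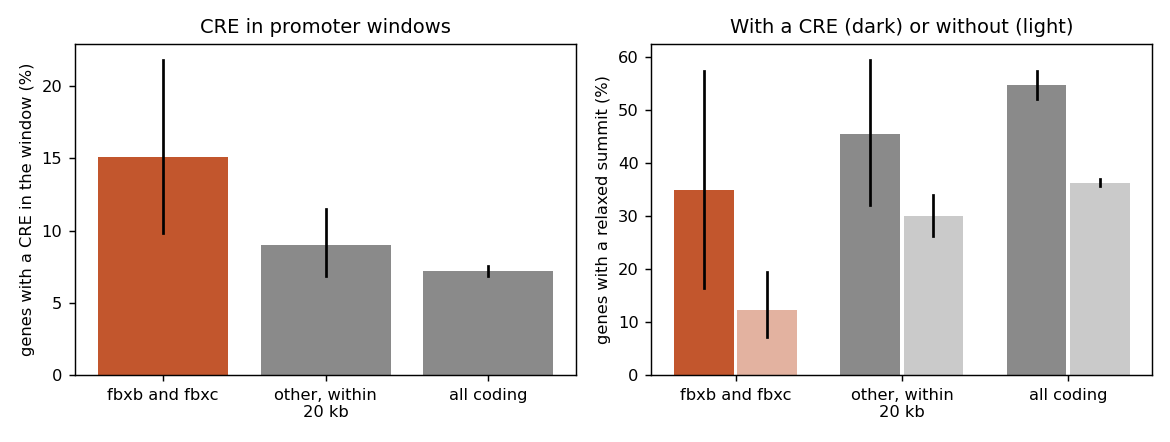
Left, percentage of genes with a CRE (TGACGTCA) in the promoter window. Right, percentage of genes with a relaxed pooled summit among those with a CRE (dark) and without (light). Groups are the fbxb and fbxc genes, other coding genes within 20000 bp of one, and all protein-coding genes, and black lines are 95% Clopper-Pearson intervals. Members had a CRE in 15.1% and all genes in 7.21%.

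Of the 8 members with both a CRE and a relaxed pooled summit in the window, 6 had a CRE within 60 bp of a summit (34.9 to 96.8%). Of the 786 protein-coding genes with both, 360 did, or 45.8%, which is within that interval. *fbxc-24* and *fbxc-27* count separately here although they share 1 summit and the same site near it. The distance from the centre of the site was 9 bp at *fbxb-65*, 16 bp at *fbxc-28*, 28 bp at *fbxc-39*, 30 bp at *fbxc-24* and *fbxc-27*, and 31 bp at *fbxb-66*. At *fbxb-119* it was 206 bp. The summits of the 6 members with a close site had pooled ranks from 4774 to 28556. Their windows had 56.9% unique words at *fbxb-65*, 71.0% at *fbxb-66*, 81.9% at *fbxc-27*, 93.3% at *fbxc-24*, 94.4% at *fbxc-28* and 99.2% at *fbxc-39*. Replicate 2 had no summit in the window of *fbxb-66*, and replicate 3 had none in those of *fbxc-24* and *fbxc-27*.

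The sequences around some of these relaxed summits are shown with the CRE in capitals, on the strand of the member. They were chosen because they hold a CRE, so their contrast with the bound peaks, which lack it, comes from that choice. Of all 30000 relaxed pooled peaks 3.73% held TGACGTCA within 60 bp of the summit. Of all 2247 IDR peaks 9.79% held it within 100 bp, a wider window. The sequences shown are chrII:923173-923293 (plus strand) for *fbxc-28*, chrV:19329500-19329562 (plus strand, up to the 5′ end) for *fbxb-65*, and chrII:909279-909399 (plus strand) for *fbxc-27*. The last lies in an intron of *fbxc-24*, which runs the other way, and counts for *fbxc-24* only through a second annotated 5′ end within that gene.
fbxc-28: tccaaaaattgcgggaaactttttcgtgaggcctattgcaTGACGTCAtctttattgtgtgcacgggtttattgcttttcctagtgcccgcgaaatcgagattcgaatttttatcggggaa
fbxb-65: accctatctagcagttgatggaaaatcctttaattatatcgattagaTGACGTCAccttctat
fbxc-27: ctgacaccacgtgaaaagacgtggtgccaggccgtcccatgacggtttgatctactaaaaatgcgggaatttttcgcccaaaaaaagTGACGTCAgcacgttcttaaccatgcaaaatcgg

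The partners of F-box proteins were looked at in the same windows. None of 20 Skp1-related adaptor genes (skr) was bound, and 5 (25.0%, 8.66 to 49.1%) had a relaxed pooled summit, beside 37.6% of all genes. Of 8 cullin and RING subunit genes 0 were bound and 5 had a relaxed summit (24.5 to 91.5%). Among 12 genes of cullin neddylation and the COP9 signalosome, which attach and remove NEDD8, *dcn-1* was bound (signal 217, IDR rank 489) and 7 had a relaxed summit (27.7 to 84.8%). Of 8 conserved F-box genes outside the expanded families, 7 had a relaxed summit (47.3 to 99.7%, above the share of all genes) and 2 were bound, the beta-TrCP homologue *lin-23* (signal 127) and *fbxl-1* (signal 126). These conserved genes have a mean of 2.00 annotated 5′ ends against 1.47 over all genes. Of all genes with more than 1 5′ end 53.6% had a relaxed summit, which is within that interval. The intervals of the bound shares all include the 6.23% of all genes. These short lists were not tested.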

How the data were processed

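ChIP-seq of tagged ATF-7 was deposited as peak lists in builds ce10 and ce11. The ce11 lists were used and the ce10 lists were not used here. Per the deposited listing, the authors called relaxed peaks against a control in each replicate and in the pooled reads, and took optimal IDR peaks from these lists. The deposited signal of a peak is the authors' own value, used here only to rank and describe peaks within a list. Not given in the sources used here are the aligner, the peak caller, the IDR threshold and how multiply mapped reads were treated. The control was not analysed here. Depth is unknown.

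Summits were counted from 1 and joined with pandas 2.3.3 in Python 3.11.15 to 29314 5′ ends of protein-coding transcripts in Ensembl release 115, after the assignment was tested on simulated data. Intervals are exact Clopper-Pearson intervals from scipy 1.17.1. Unique words are 31 bases long, counted on both strands. A member with several 5′ ends takes its most unique window. There is 1 group, so no p-value was computed. The members, gene lists and motifs were chosen with earlier results of these data known.

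Genes named are the bound members and genes sharing their peak, the next 12 members by relaxed rank, the members of the 3 largest clusters, members with a CRE, the 3 nearest misses, and up to 5 bound genes of each pathway list. *icl-1*, *ubc-13* and other neighbours were picked with their values known. Of 21 skr names 20 were found. Alternatives were other windows, list lengths, 5′ ends, cluster gaps and single replicates. Those on unique windows, on a summit 1 base lower and on 1 5′ end a gene for relaxed peaks were chosen after seeing the data.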

Additional observations from a re-analysis of the deposited data

How the results depend on the processing

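The number of bound members, 5, rests on the window and on the length of the list. It was 3 with 500 bp on both sides of a 5′ end (5.15% of all genes), 3 with 500 bp upstream and 200 bp downstream (4.77%), 8 with 2000 bp upstream (8.43%) and 3 in the stronger 50% of the IDR list (3.38%). The share of members was below that of all genes in each of these. Without 1 replicate, the strongest peaks of the other were used. The count was 4 without replicate 2, which lost *fbxc-19* (6.27% of all genes), and 5 without replicate 3 (5.90%). A summit 1 base lower gave 4, without *fbxb-58* (6.23% of all genes). Members with at least 95% unique words gave 4 (4.94%, beside 6.99% of all such genes). Any overlap of the peak gave 5 (6.92% of all genes), and 1 5′ end a gene gave 5 (5.53%). The members with a relaxed pooled summit, 24, became 5, 6 and 9 in shorter lists of as many peaks as the IDR list, 5000 and 10000. The shortest of these lists repeats the bound members with the same ranks and signals, so it is not a separate check. The members with a relaxed summit were 24 without replicate 2 (38.2% of all genes) and 25 without replicate 3 (36.9%). With 500 bp on both sides (35.3% of all genes), or with 1 5′ end a gene (34.5%, without *fbxc-24*), they were 23. Peaks of bound members shared with another gene rose from 1 to 2 when genes of any biotype counted. Clusters numbered 27 with a gap of 5000 bp and 23 with 20000 bp. Members with a CRE numbered 27 with 500 bp on both sides, 17.8%, beside 6.27% of all genes.

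No paired analysis was possible because there is only 1 group. The files give no depth, so no lower limit of detection can be set for members without a peak.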
